A study of Mus musculus with 11 samples.

Results

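The 8 chemokine ligand genes Ccl3, Ccl4, Ccl5, Ccl6, Xcl1, Cxcl9, Cxcl10 and Cxcl16 were read out of a count table of 46078 genes, by gene symbol, because each is a chemokine that T cells or macrophages are known to make. All 8 were found in the table, and all 8 passed the filter on low counts and were among the 16365 genes tested. The RNA came from T cells of wild-type (WT) mouse kidneys with experimental glomerulonephritis. Every mouse, whichever population its cells were sorted into, had been immunised with recombinant mouse MPO (myeloperoxidase, an autoantigen of ANCA-associated vasculitis) and had then received low-dose sheep anti-mouse basement membrane globulin as the trigger of disease. Kidneys were taken on day 21, and no group came from untreated or healthy mice. The 4 populations were CD4+CD127-PD-1+ (n = 2 libraries), CD4+CD127+PD-1- (n = 3), CD8+CD127-PD-1+ (n = 3) and CD8+CD127+PD-1- (n = 3). CD127 is the alpha chain of the interleukin-7 receptor, and PD-1 is an inhibitory receptor that T cells display after antigen stimulation. Each library pooled cells of 3 mice, so that errors below are between pools, not animals. The labels record that another sample of the group with n = 2 did not pass quality control. The sources used here do not give strain, sex or age.

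Chemokines are small secreted proteins that bind G protein-coupled receptors on leukocytes and steer them along a gradient into inflamed tissue. They are named by the spacing of their first cysteines, as CC (Ccl genes), CXC (Cxcl genes) or C (Xcl1) chemokines. Activated T cells and NK cells release CCL3, CCL4, CCL5 and XCL1. Macrophages also make CCL3 and CCL4, and in the mouse they are a known source of CCL6. CXCL9 and CXCL10 are induced by interferon, chiefly in macrophages, dendritic cells and tissue cells, and attract T cells through CXCR3. CXCL16 is made as a membrane protein of macrophages and dendritic cells, from which proteases release it, and its receptor is CXCR6. In nephritis such ligands are known for drawing T cells and monocytes into the glomerulus and the interstitium.

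In GRCm38 (GENCODE M21), 5 of the 8 genes lay on chromosome 11. Ccl5 (ENSMUSG00000035042) was at chr11:83525778-83530518 on the minus strand, Ccl6 (ENSMUSG00000018927) at chr11:83587882-83593087 on the minus strand, Ccl3 (ENSMUSG00000000982) at chr11:83647844-83649355 on the minus strand and Ccl4 (ENSMUSG00000018930) at chr11:83662584-83664683 on the plus strand. These 4 are neighbours in the CC chemokine cluster, while Cxcl16 (ENSMUSG00000018920) lay elsewhere on the chromosome, at chr11:70453983-70459984 on the minus strand. Cxcl9 (ENSMUSG00000029417, chr5:92321347-92328079) and Cxcl10 (ENSMUSG00000034855, chr5:92346638-92348889) lay near each other on the minus strand of chromosome 5. Xcl1 (ENSMUSG00000026573) was at chr1:164931644-164935527 on the minus strand. Exons of 5 of the 8 genes shared no bases with exons of another gene, although the span of Ccl6 overlapped that of E230016K23Rik on the opposite strand.

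Promoter sequence from RefSeq (GRCm38.p6) was at hand for 5 of the 8 genes, Ccl3, Ccl6, Xcl1, Cxcl9 and Cxcl10. For Ccl3 and Xcl1 the RefSeq start site differed from the upper end of the GENCODE gene span given above. The 250 bases before the RefSeq start site were searched on both strands for 5 motifs. These were GAAANNGAA, the core of the interferon-stimulated response element, TTCNNNGAA, the gamma-activated site of interferon gamma response, GGGANTTTC, a form of the NF-kB site, TGANTCA, the AP-1 site, and AGGTGTGA, the T-box sequence bound by T-bet. The 3 windows that held a match are shown because Cxcl9 and Cxcl10 are interferon-induced genes and Ccl3 is released by activated T cells and macrophages alike. All 3 run on the minus strand of the chromosome, are written 5′ to 3′ along the gene, and carry the matches in capitals.
Ccl3, chr11:83649379-83649628: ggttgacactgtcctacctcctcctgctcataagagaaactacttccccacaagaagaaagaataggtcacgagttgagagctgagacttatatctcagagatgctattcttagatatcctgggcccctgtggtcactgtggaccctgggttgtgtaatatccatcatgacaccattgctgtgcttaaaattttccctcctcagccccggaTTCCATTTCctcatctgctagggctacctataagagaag
Cxcl9, chr5:92328080-92328329: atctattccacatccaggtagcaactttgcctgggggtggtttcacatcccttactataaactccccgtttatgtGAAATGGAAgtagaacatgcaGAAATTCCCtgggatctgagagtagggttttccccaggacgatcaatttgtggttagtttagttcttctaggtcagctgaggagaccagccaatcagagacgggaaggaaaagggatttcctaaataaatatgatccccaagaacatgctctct
Cxcl10, chr5:92348890-92349139: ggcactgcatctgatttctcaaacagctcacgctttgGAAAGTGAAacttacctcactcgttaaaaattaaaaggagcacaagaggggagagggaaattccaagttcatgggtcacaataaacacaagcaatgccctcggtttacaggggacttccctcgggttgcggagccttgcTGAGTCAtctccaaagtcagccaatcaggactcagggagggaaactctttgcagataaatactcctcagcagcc
In Cxcl9 the capitals mark GAAANNGAA at -175 to -167 and, on the opposite strand, GGGANTTTC at -154 to -146 from the start site. In Cxcl10 they mark GAAANNGAA at -213 to -205 and TGANTCA at -74 to -68. In Ccl3 they mark GAAANNGAA on the opposite strand at -39 to -31. The windows of Ccl6 and Xcl1 held none of the 5 motifs. Of 32851 promoter windows of the same length, 7.13% held GAAANNGAA, 7.02% TTCNNNGAA, 0.941% GGGANTTTC, 6.75% TGANTCA and 1.12% AGGTGTGA, with no match for TTCNNNGAA or AGGTGTGA in the 5 windows. A match in these letters is a description of the sequence and was not tested as a binding site.

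The depth of the libraries was 10.6 to 16.1 M counts, with 20514 to 21849 genes detected, and mitochondrial ribosomal RNA took 28.1 to 40.8% of counts, with all 3 CD8+CD127-PD-1+ libraries at the top of that range (35.7% or more). The genes of the sorting markers followed the labels. Il7r, which encodes CD127, ran from 13.8 to 27.2 CPM (counts per 1000000, with library sizes scaled by TMM) in the CD127-PD-1+ libraries and from 329 to 455 CPM in the CD127+PD-1- libraries. Pdcd1, which encodes PD-1, ran from 16.5 to 34.3 CPM and from 0.845 to 2.57 CPM in the same order. The summed level of 10 T cell markers, such as Cd3e and Lck, ran from 1459 to 2341 CPM per library, with overlap between all 4 populations. It was 1889 and 2341 CPM in CD4+CD127-PD-1+ and 2118, 1688 and 1459 CPM in CD8+CD127-PD-1+ libraries, in order of replicate. Of the 10 markers 0 were called in either state comparison (1 of 10 at an unadjusted p under 0.05 in each, and 0 with DESeq2 or limma-voom). The summed level of 20 macrophage markers, such as Csf1r, C1qa and Adgre1, did not overlap between the states. It was 3195 and 1518 CPM for the pair of CD4+CD127-PD-1+ pools, 1526, 2982 and 2942 CPM for the 3 CD8+CD127-PD-1+ libraries, against 141 to 268 CPM in CD4+CD127+PD-1- and 160 to 293 CPM in CD8+CD127+PD-1- libraries. Of the 20 macrophage markers 18 were called higher in CD127-PD-1+ in both lineages, all but Tyrobp and Cd163. The only marker at 0 was Trem2, in 4 of the CD127+PD-1- libraries. All 6 neutrophil markers and 3 of 5 B cell markers were called higher in CD8+CD127-PD-1+, against 1 of 6 and 0 of 5 in CD4+CD127-PD-1+. Limma-voom called 3 of 6 and 4 of 5 in CD8 cells and 0 of each in CD4 cells, and in the test of the difference between lineages 0 of either list were called (2 of 6 and 0 of 5 at an unadjusted p under 0.05, and 0 with DESeq2 or limma-voom). Of 8 plasmacytoid dendritic cell markers 5 in CD4 and 3 in CD8 cells were called lower, against 6 and 5 with DESeq2 and 5 and 5 with limma-voom. Every increase of a ligand in CD127-PD-1+ populations below therefore stands beside that of the macrophage markers, and the part of those markers in each result was not tested except where a value is given. In bulk RNA, fewer cells of a type and less RNA per cell cannot be told apart.

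The comparison of the CD127-PD-1+ with the CD127+PD-1- populations asks which genes differ between kidney T cells that display PD-1 and lack CD127 and those that display CD127 and lack PD-1. Within CD4 cells 6 of the 8 ligands were called higher in CD127-PD-1+ and 0 lower (Ccl3, Ccl4, Ccl6, Cxcl9, Cxcl10 and Cxcl16), where 6.81% of all tested genes were called higher, 4.87% lower and 11.7% in either direction. Within CD8 cells the same 6 ligands were called higher and 0 lower, against 9.05% of all genes called higher, 6.56% lower and 15.6% in either direction. With mitochondrial genes left out, 6 were called higher in each lineage. Leaving out CD4+CD127-PD-1+ replicate 1 left 1 library in that group. Fewer of the 8 ligands, and fewer of all genes, were then called in CD4 cells. Ccl5 and Xcl1 were called in neither. The median log2 fold change of the 8 was 2.29 in CD4 and 2.03 in CD8 cells, against 0.02 and 0.01 over all tested genes. All p-values are from edgeR's quasi-likelihood test, adjusted by Benjamini-Hochberg over all genes tested, and a gene was called where the adjusted p was under 0.05. The libraries of the compared groups did not overlap for 8 of 8 ligands in CD4 cells, where 21.3% of all genes were higher without overlap, and for 6 of 8 in CD8 cells, where 18.0% were.

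**Figure D1:**
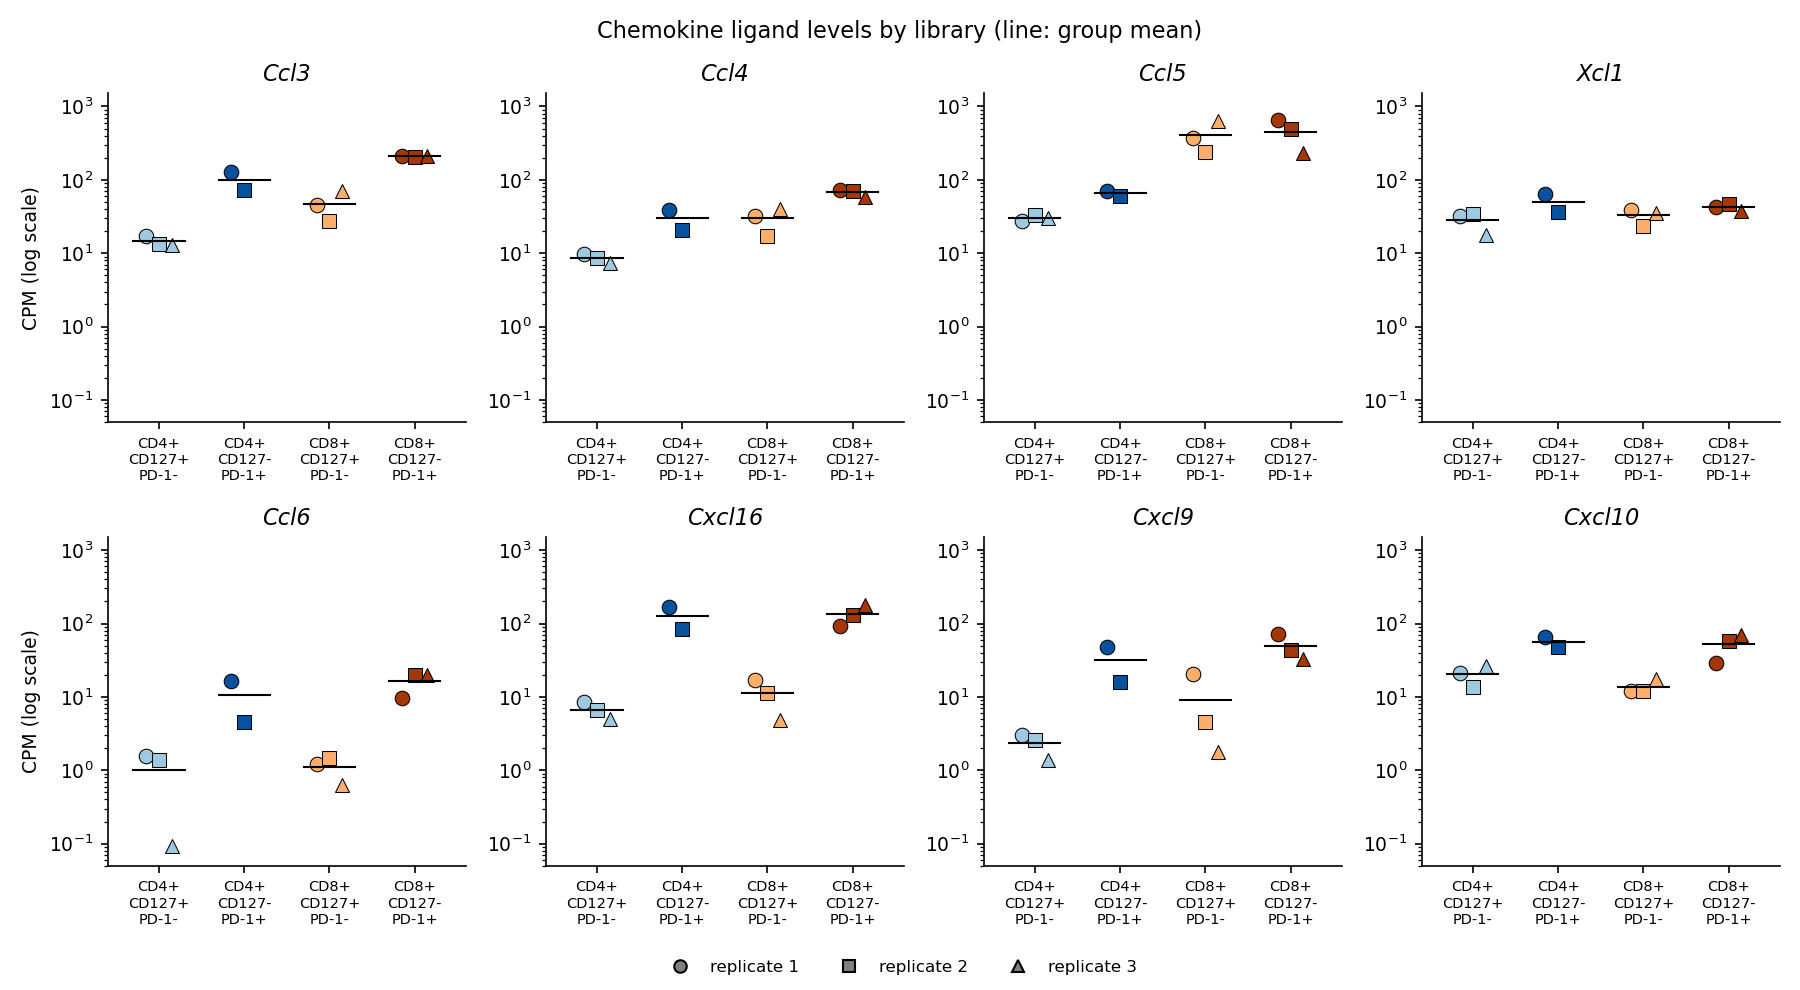
Level of each of the 8 chemokine ligand genes in every library. Points are libraries, the vertical axis is CPM on a log scale, and the 4 positions along each panel are the sorted populations (n = 2 for CD4+CD127-PD-1+ and n = 3 for each of the others). Ccl3, Ccl6, Cxcl16 and, by a narrow margin, Cxcl10 were higher in every CD127-PD-1+ library than in any CD127+PD-1- library. Ccl5 separated CD8 from CD4 libraries.

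Ccl3 encodes MIP-1 alpha, a ligand of CCR1 that T cells and macrophages release on activation. It stood at 127.3 and 72.5 CPM in CD4+CD127-PD-1+, at 17.4, 13.4 and 13.1 CPM in CD4+CD127+PD-1-, at 212, 203 and 213 CPM in CD8+CD127-PD-1+, and at 45.2, 27.3 and 70.1 CPM in CD8+CD127+PD-1-. Every CD127-PD-1+ library was higher than every CD127+PD-1- library, of either lineage. The log2 fold change was 2.77 (SE 0.33, adjusted p = 0.000549, 6.82-fold) in CD4 cells and 2.14 (SE 0.29, adjusted p = 0.00073, 4.40-fold) in CD8 cells. The 3 CD8+CD127-PD-1+ libraries were nearly level (209 ± 5.15 CPM, SD, n = 3), while their summed macrophage markers ran from 1526 CPM in replicate 1 to 2982 CPM in replicate 2. In the pair of CD4+CD127-PD-1+ pools Ccl3 was higher in replicate 1, as was the macrophage marker sum (3195 against 1518 CPM).

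Ccl4 encodes MIP-1 beta, which is commonly released with CCL3. It stood at 39.2 and 20.6 CPM in CD4+CD127-PD-1+, at 9.70, 8.52 and 7.44 CPM in CD4+CD127+PD-1-, at 73.5, 70.9 and 58.3 CPM in CD8+CD127-PD-1+, and at 32.6, 17.2 and 39.8 CPM in CD8+CD127+PD-1-. Within each lineage the states did not overlap, but the CD127-PD-1+ libraries of CD4 cells covered nearly the same range as the CD127+PD-1- libraries of CD8 cells. Ccl4 rose by 1.80 on the log2 scale in CD4 cells (SE 0.33, adjusted p = 0.00604, 3.49-fold) and by 1.18 in CD8 cells (SE 0.29, adjusted p = 0.0178, 2.26-fold). The CD4 call was lost when CD4+CD127-PD-1+ replicate 1 was left out (adjusted p = 0.0602), and the CD8 call without CD8+CD127-PD-1+ replicate 2 (adjusted p = 0.0541).

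The balance of Ccl3 and Ccl4 was also read within each library. There were 3.25 and 3.52 counts of Ccl3 per count of Ccl4 in the CD4+CD127-PD-1+ libraries and 2.88, 2.87 and 3.65 in CD8+CD127-PD-1+. In CD127+PD-1- there were 1.79, 1.57 and 1.76 in CD4 cells and 1.39, 1.59 and 1.76 in CD8 cells. The ratio was higher in every CD127-PD-1+ library than in any CD127+PD-1- library. It was singled out after its values were seen and was not tested.

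Ccl5 encodes RANTES, which effector and memory CD8 cells store as transcript and protein and which binds CCR1 and CCR3, among others. Its libraries stood at 71.0 and 61.0 CPM in CD4+CD127-PD-1+, at 27.3, 33.5 and 30.0 CPM in CD4+CD127+PD-1-, at 646, 486 and 231 CPM in CD8+CD127-PD-1+, and at 373, 239 and 626 CPM in CD8+CD127+PD-1-. The CD4 states did not overlap, the CD8 states covered nearly the same range, and every CD8 library was higher than every CD4 library. In CD4 cells the log2 fold change was 1.13 (SE 0.40, adjusted p = 0.1), which did not pass with the chosen settings but did with DESeq2 (adjusted p = 0.0302), with no filter on low counts (adjusted p = 0.00327) and with only the CD4 groups in the fit (adjusted p = 0.00537). In CD8 cells the log2 fold change was 0.14 (SE 0.35, adjusted p = 0.841), and it was -0.20 without CD8+CD127-PD-1+ replicate 1 and -0.14 without CD8+CD127+PD-1- replicate 2. Within CD8 cells, then, no difference in Ccl5 was detectable between pools that themselves spread widely.

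Xcl1 encodes lymphotactin, the C chemokine of activated CD8 and NK cells whose receptor XCR1 marks cross-presenting dendritic cells. It stood at 63.6 and 36.8 CPM in CD4+CD127-PD-1+, at 31.8, 34.6 and 17.7 CPM in CD4+CD127+PD-1-, at 42.7, 46.3 and 38.2 CPM in CD8+CD127-PD-1+, and at 38.7, 23.8 and 35.8 CPM in CD8+CD127+PD-1-. It had the flattest profile of the 8, with a SD of log2 CPM over the 11 libraries of 0.48, against 0.98 to 2.13 for the others. The log2 fold change was 0.84 (SE 0.30, adjusted p = 0.0993) in CD4 cells, where the libraries did not overlap, and 0.37 (SE 0.27, adjusted p = 0.403) in CD8 cells, where they did. With no filter on low counts the CD4 difference passed (adjusted p = 0.0202). Exons of Xcl1 share 98 bases with Gm20743, a transcript on the opposite strand whose counts ran from 216 to 1113 per library, close to those of Xcl1 (190 to 946). The sources used here do not say whether counting used strand, so reads in the shared stretch, 98 of the 523 exonic bases of Xcl1, cannot be assigned to either gene with certainty. With the counts of Gm20743 added, the log2 fold change was 0.82 in CD4 and 0.27 in CD8 cells.

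Cxcl16 encodes the membrane-bound chemokine that also serves as a scavenger receptor on macrophages. Its libraries stood at 167 and 83.8 CPM in CD4+CD127-PD-1+, at 8.45, 6.6 and 4.93 CPM in CD4+CD127+PD-1-, at 92.0, 129 and 178 CPM in CD8+CD127-PD-1+, and at 17.2, 11.2 and 4.92 CPM in CD8+CD127+PD-1-. Every CD127-PD-1+ library was higher than every CD127+PD-1- library. The log2 fold change was 4.23 (SE 0.47, adjusted p = 0.000365, 18.8-fold) in CD4 cells and 3.58 (SE 0.43, adjusted p = 0.000342, 11.9-fold) in CD8 cells.

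Like the summed macrophage markers, Cxcl16 was higher in CD4+CD127-PD-1+ replicate 1 than in replicate 2, and lowest in replicate 1 among CD8+CD127-PD-1+ libraries. In the CD127-PD-1+ libraries there were 0.554 to 0.792 counts of Cxcl16 per count of Csf1r, the receptor of macrophage colony-stimulating factor, and in the CD127+PD-1- libraries 0.927 to 3.46. Exons of Cxcl16 share 552 bases with Zmynd15 on the opposite strand, which had 329 to 773 counts in CD127-PD-1+ and 4 to 46 counts in CD127+PD-1- libraries. With the counts of Zmynd15 added, the log2 fold changes of Cxcl16 were 4.45 and 3.68. Both genes of the proteases that release CXCL16 from the membrane, Adam10 and Adam17, were called higher in the CD127-PD-1+ state of CD4 cells (log2 fold changes 0.53, adjusted p = 0.0192, and 0.51, adjusted p = 0.0318). Both calls were lost when a library was left out, at adjusted p-values of 0.113 (Adam10) and 0.14 (Adam17) for CD4+CD127-PD-1+ replicate 1, 0.0504 and 0.0897 for replicate 2, 0.0681 and 0.0925 for CD4+CD127+PD-1- replicate 1, and 0.0701 and 0.106 for its replicate 2. Adam17 was also called in CD8 cells (0.61, adjusted p = 0.00621), while Adam10 was not (0.32, adjusted p = 0.0778). The median of the pair was 0.52 and 0.46.

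Ccl6 encodes a CC chemokine of mouse myeloid cells with no direct human counterpart. It was the least abundant of the 8 per kilobase in every population, at 16.6 and 4.54 CPM in CD4+CD127-PD-1+, at 1.57, 1.38 and 0.0930 CPM in CD4+CD127+PD-1-, at 9.57, 19.6 and 19.9 CPM in CD8+CD127-PD-1+, and at 1.21, 1.47 and 0.624 CPM in CD8+CD127+PD-1-. The CD127+PD-1- values rest on 1 to 20 counts per library, so counting error is large there. No CD127-PD-1+ library was as low as any CD127+PD-1- library. Ccl6 rose by 3.33 on the log2 scale in CD4 cells (SE 0.69, adjusted p = 0.0106, 10.1-fold) and by 3.89 in CD8 cells (SE 0.65, adjusted p = 0.00217, 14.8-fold). In CD4 cells the call was lost when CD4+CD127-PD-1+ replicate 1 was left out (log2 fold change 2.12, adjusted p = 0.110) and with limma-voom (adjusted p = 0.0647). Replicate 1 held the higher macrophage markers of the pair of CD4+CD127-PD-1+ libraries, and among CD8+CD127-PD-1+ libraries Ccl6 was lowest in replicate 1, which held the fewest.

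**Figure D2:**
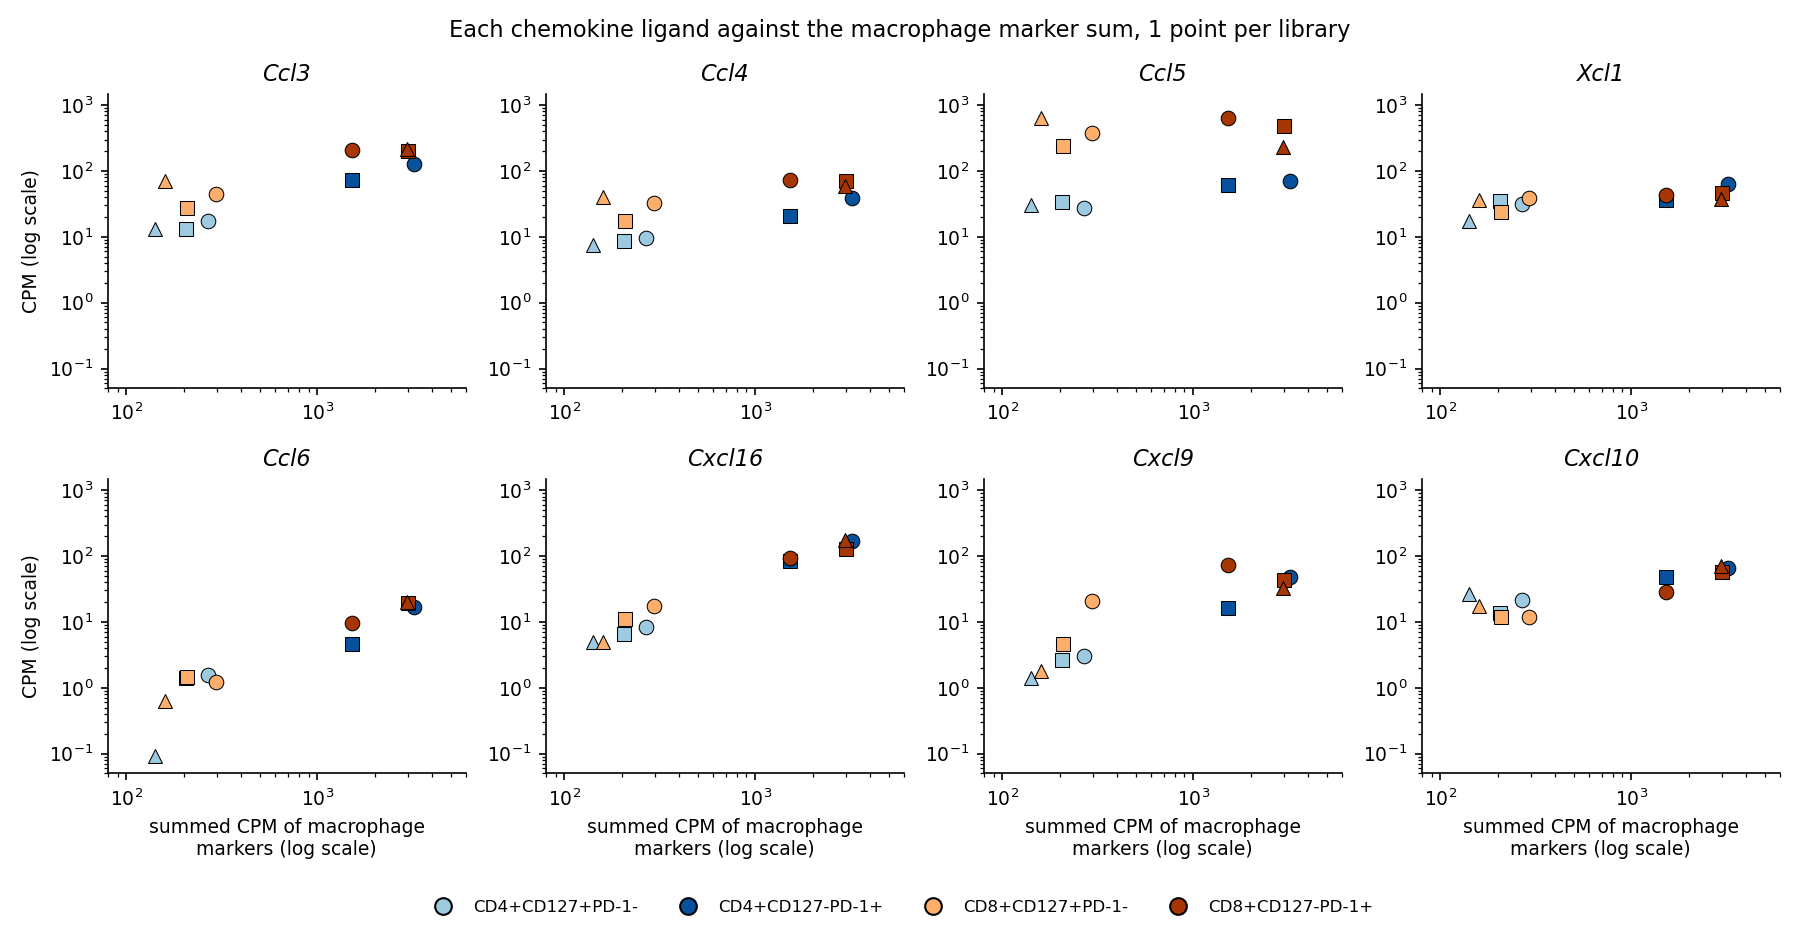
Level of each ligand against the summed level of the 20 macrophage markers, 1 point per library (11 libraries), both axes in CPM on log scales, colours marking the 4 sorted populations. Cxcl16, Ccl6, Ccl3 and Cxcl10 were higher in every library with a macrophage marker sum of 1518 CPM or more than in the libraries with 293 CPM or less, and Ccl5 separated by lineage. Ccl3 was nearly level over the 3 CD8+CD127-PD-1+ libraries and followed the sum in the CD4+CD127-PD-1+ pair.

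Cxcl9 encodes MIG, a CXCR3 ligand induced by interferon gamma. It stood at 48.3 and 16.2 CPM in CD4+CD127-PD-1+, at 2.98, 2.61 and 1.40 CPM in CD4+CD127+PD-1-, at 72.4, 43.8 and 32.5 CPM in CD8+CD127-PD-1+, and at 20.5, 4.62 and 1.80 CPM in CD8+CD127+PD-1-. The states did not overlap within a lineage, but the spread between pools was wide, at 8.99 ± 10.1 CPM (SD, n = 3) in CD8+CD127+PD-1-. Cxcl9 rose by 3.77 on the log2 scale in CD4 cells (SE 0.82, adjusted p = 0.0133, 13.7-fold) and by 2.46 in CD8 cells (SE 0.70, adjusted p = 0.0336, 5.49-fold).

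The calls of Cxcl9 were lost under more alternatives than those of the other 5 ligands. In CD8 cells the adjusted p ran from 0.0508 to 0.121 when 5 of the 6 libraries compared were left out in turn, all but CD8+CD127+PD-1- replicate 1, and was 0.0616 with only the CD8 groups in the fit. In CD4 cells the call was lost when CD4+CD127-PD-1+ replicate 1 was left out (adjusted p = 0.0966), and likewise for CD4+CD127+PD-1- replicate 2 (0.0523) and replicate 3 (0.0508). Within CD8+CD127-PD-1+ Cxcl9 was highest in replicate 1, where the summed macrophage markers were lowest. Within each of the other 3 populations Cxcl9 and the summed macrophage markers stood in the same order, as in CD4+CD127-PD-1+, where Cxcl9 was higher in replicate 1, and in CD8+CD127+PD-1-, where the sums were 293, 208 and 160 CPM. The dendritic cell gene Clec9a was highest in replicate 1 of both CD8 populations, at 209, 62.1 and 77.5 CPM in CD8+CD127-PD-1+ and 155, 53.7 and 19.8 CPM in CD8+CD127+PD-1- replicates 1 to 3. The 7 dendritic cell markers summed to 274 to 470 CPM in CD8+CD127-PD-1+ and 156 to 379 CPM in CD8+CD127+PD-1- libraries. In the CD4 populations they summed to 61.1 to 173 CPM in CD127-PD-1+ and 91.7 to 218 CPM in CD127+PD-1-. Only Batf3 of the 7 was called higher in CD127-PD-1+, in both lineages, while limma-voom called 0 of the 7 in CD4 and 1 in CD8 cells. The part of the macrophage and dendritic cell markers in Cxcl9 was not tested.

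Cxcl10 encodes IP-10, a CXCR3 ligand induced by type I interferon as well as by interferon gamma. Its libraries stood at 66.0 and 47.4 CPM in CD4+CD127-PD-1+, at 21.1, 13.8 and 26.5 CPM in CD4+CD127+PD-1-, at 28.7, 58.1 and 70.6 CPM in CD8+CD127-PD-1+, and at 11.9, 12 and 17.5 CPM in CD8+CD127+PD-1-. The states did not overlap within either lineage, although the lowest CD8+CD127-PD-1+ library was near the highest CD4+CD127+PD-1- library. The log2 fold change was 1.47 (SE 0.35, adjusted p = 0.0203, 2.77-fold) in CD4 cells and 1.93 (SE 0.33, adjusted p = 0.00257, 3.80-fold) in CD8 cells. The CD4 call was lost when CD4+CD127-PD-1+ replicate 1 was left out (adjusted p = 0.123) and with CD4+CD127+PD-1- replicate 1 left out (adjusted p = 0.0595) or replicate 2 (adjusted p = 0.0759).

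Cxcl9 and Cxcl10 did not follow the same order of libraries. Among the CD8+CD127-PD-1+ libraries Cxcl9 was highest and Cxcl10 lowest in replicate 1, which gave 2.52 counts of Cxcl9 per count of Cxcl10 there against 0.754 and 0.460 in replicates 2 and 3. Exons of Cxcl10 share 133 bases with Art3 on the opposite strand, and with the counts of Art3 added its log2 fold changes were 1.51 and 1.94. Of 6 genes of interferon gamma, its receptor and its signal chain, 0 were called higher and 1 lower in each lineage, with medians of -0.32 in CD4 and -0.018 in CD8 cells. At an unadjusted p under 0.05, 2 were higher and 1 lower in CD4 cells, and 0 and 2 in CD8 cells. DESeq2 called 1 higher and 1 lower in CD4 and 0 and 2 in CD8 cells, and limma-voom called 0 higher in both, with 1 and 2 lower. The gene called lower in both lineages was Jak1, the kinase shared by interferon and interleukin-7 receptors (-0.45, adjusted p = 0.0105 in CD4 and -0.53, adjusted p = 0.00146 in CD8 cells), a call that was lost in CD4 cells when CD4+CD127-PD-1+ replicate 1 was left out (adjusted p = 0.0937). Ifng itself, the cytokine that induces both ligands, measured 253 and 233 CPM in the CD127-PD-1+ and 123, 127.5 and 143 CPM in the CD127+PD-1- libraries of CD4 cells (log2 fold change 0.89, adjusted p = 0.0738). In CD8 cells it measured 269, 222 and 146 CPM in CD127-PD-1+ and 145, 93.4 and 213 CPM in CD127+PD-1- (0.50, adjusted p = 0.237).

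**Figure D3:**
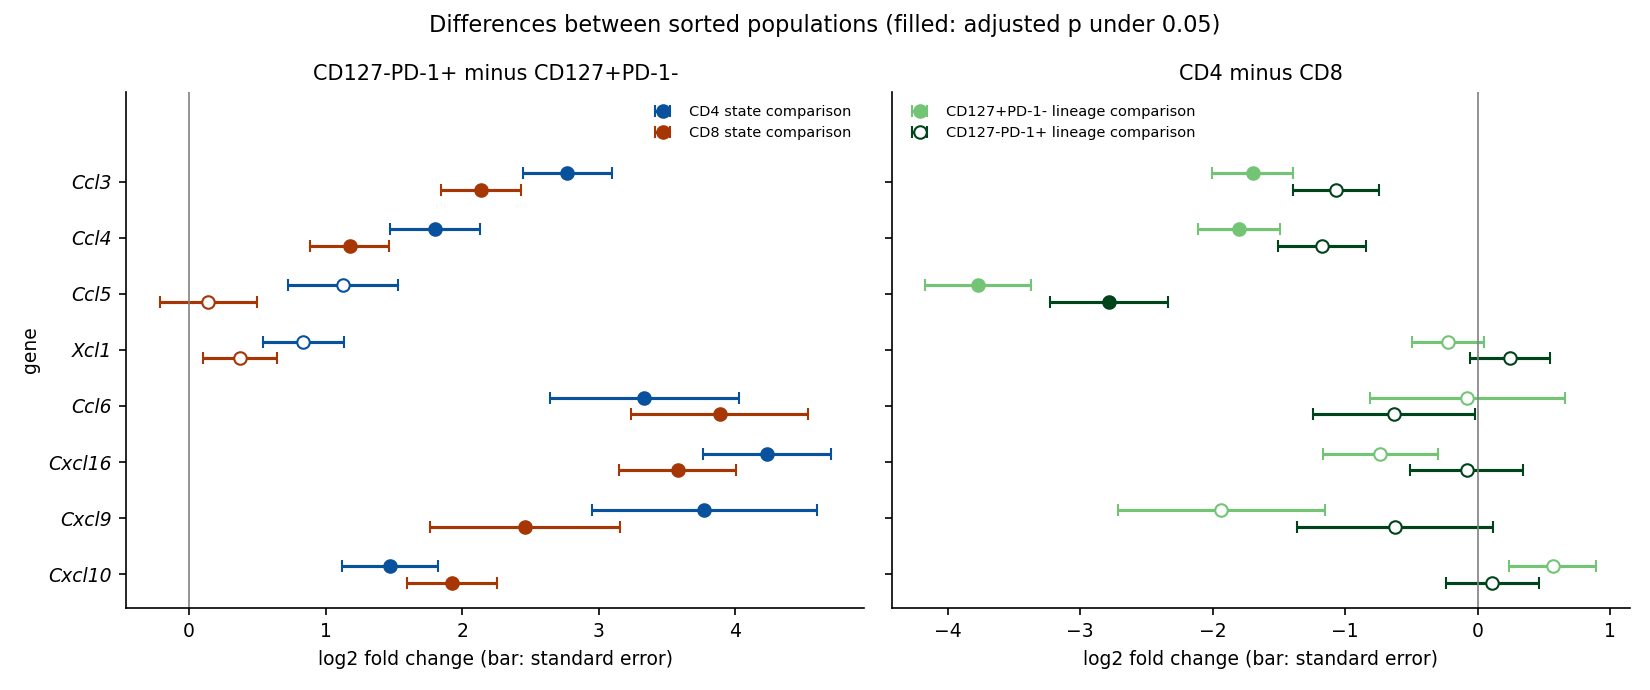
Log2 fold changes of the 8 ligands in the 2 state comparisons and the 2 lineage comparisons, with standard errors as bars, filled points marking an adjusted p under 0.05. In both state comparisons 6 of 8 points are filled and lie above 0, and Ccl5 is the ligand filled in both lineage comparisons.

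Comparing CD4 with CD8 cells of the same state asks which ligands differ between the lineages as sorted. NK cells also release CCL3, CCL4 and CCL5, and 5 NK cell markers summed lower in CD4 libraries on average. In CD127-PD-1+ cells the mean sum was 12.6 CPM in CD4 and 51.9 CPM in CD8 libraries, without overlap. In CD127+PD-1- cells it was 16.7 and 47.8 CPM, with overlap. Klre1 made up most of that CD8 sum, at a mean of 3.85 CPM in CD4 and 38.2 CPM in CD8 libraries. Klra4 (0.784 and 0.916 CPM) and Klra8 (0.249 and 0.866 CPM) were also lower in CD4 libraries on average. Ncr1 (4.94 and 2.66 CPM) and Klrb1c (6.91 and 5.11 CPM) were higher, so the markers did not agree in direction. Of the 5 markers 0 were called lower in CD4 among CD127-PD-1+ cells and 1 among CD127+PD-1- cells (4 and 2 at an unadjusted p under 0.05). The part of NK cells in the ligand differences was not tested. Among CD127+PD-1- cells 3 of the 8 were called lower in CD4 cells and 0 higher (Ccl3, Ccl4 and Ccl5), where 1.66% of all genes were called lower and 4.42% in either direction. Ccl5 was 13.6-fold lower (log2 fold change -3.77, SE 0.40, adjusted p = 0.00037), Ccl4 3.49-fold lower (-1.80, SE 0.31, adjusted p = 0.00574) and Ccl3 3.25-fold lower (-1.70, SE 0.30, adjusted p = 0.00741). None of these 3 genes overlapped between the lineages, where 10.9% of all genes were lower without overlap. Among CD127-PD-1+ cells 1 of the 8, Ccl5, was called lower in CD4 cells and 0 higher, where 0.843% of all genes were called lower, 1.60% higher and 2.44% in either direction. Ccl5 was 6.89-fold lower there (-2.78, SE 0.45, adjusted p = 0.00682), and the call was lost when CD4+CD127-PD-1+ replicate 2 was left out (adjusted p = 0.0909). Ccl3 (-1.07, adjusted p = 0.144) and Ccl4 (-1.18, adjusted p = 0.106) were not called, although their libraries did not overlap, as for 13.5% of all genes in that direction, and both passed with DESeq2 and with no filter on low counts.

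The other 5 ligands were called in neither lineage comparison. In CD127-PD-1+ cells the CD4-to-CD8 log2 fold change was -0.08 (SE 0.42) for Cxcl16, -0.63 (SE 0.61) for Ccl6, -0.62 (SE 0.74) for Cxcl9, 0.11 (SE 0.35) for Cxcl10 and 0.24 (SE 0.30) for Xcl1. All 5 overlapped between the lineages. The largest uncalled lineage difference was that of Cxcl9 in CD127+PD-1- cells (-1.94, SE 0.78, adjusted p = 0.217). It was -0.44 when CD8+CD127+PD-1- replicate 1 was left out (adjusted p = 0.805), and it passed with no filter on low counts (-1.95, adjusted p = 0.0106).

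Whether the state change itself differed between CD4 and CD8 cells was tested as an interaction. Of the 8 ligands 0 were called with edgeR's quasi-likelihood test, 0 had an unadjusted p under 0.05, and 0 were called with DESeq2 or limma-voom. Over all genes 0.00611% were called. The largest differences were those of Cxcl9 (1.31 on the log2 scale, SE 1.06, adjusted p = 0.984) and Ccl5 (0.98, SE 0.54, adjusted p = 0.922). So the larger CD4 fold changes of Ccl3, Ccl4, Cxcl9 and Cxcl16, and the larger CD8 fold changes of Ccl6 and Cxcl10, did not pass the test of the difference. The Ccl5 change, 2.18-fold in CD4 and 1.10-fold in CD8 cells, was not shown to differ either.

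Set against each other per kilobase of exon, the ligands ranked differently in the 4 populations. In CD8+CD127-PD-1+ cells the mean level was 474 CPM per kb for Ccl5 and 273 for Ccl3, followed by 102 for Ccl4 and 81.1 for Xcl1. The libraries of Ccl5 (241 to 673 CPM per kb) and Ccl3 (265 to 278) overlapped there, as did those of Ccl4 and Xcl1. In CD8+CD127+PD-1- cells Ccl5 stood alone at 430 CPM per kb, above Xcl1 (62.6), Ccl3 (62.1) and Ccl4 (45.3), whose libraries overlapped in turn. In CD4+CD127-PD-1+ cells Ccl3 led with 130 CPM per kb, ahead of Xcl1 (96.0) and Ccl5 (68.8), and these neighbours overlapped. In CD4+CD127+PD-1- cells Xcl1 (53.6) and Ccl5 (31.5) led, and Ccl3 (19.1) stood below both without overlap. Cxcl16 reached 41.6 and 44.0 CPM per kb in the CD4 and CD8 CD127-PD-1+ cells and 2.21 and 3.68 in the CD127+PD-1- cells. Cxcl10 held 25.2 and 23.3, and 9.10 and 6.13, in the same order. Cxcl9 and Ccl6 had the lowest means in every population, at 16.4 CPM per kb or less. In both CD8 populations the libraries of Cxcl9 overlapped those of the ligand ranked next above it, Cxcl10 in CD127-PD-1+ and Cxcl16 in CD127+PD-1-, and Cxcl9 overlapped Ccl6 in all 4 populations.

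Of 29 other chemokine ligand genes, 15 passed the filter on low counts, which those with 0 counts in a whole group did through the other groups. In CD4 cells 9 were called higher and 0 lower in CD127-PD-1+, where 6.81% of all tested genes were called higher. In CD8 cells 10 were called higher and 0 lower, against 9.05% of all genes called higher. In each lineage 2 of the 15 had 0 counts in every CD127+PD-1- library. These could not have been called lower, so the counts are no test of direction for them. Others of the 15 were near 0 in that state. Ccl12, Pf4 and Cxcl1 each averaged at most 0.256 CPM in either CD127+PD-1- population, and Ccl7 and Cxcl3 at most 0.0449 CPM in the CD8 one. Such genes had little room to be called lower, so the 0 lower is a weak test of direction for this list. The medians were 2.80 and 4.73, or 2.80 and 3.96 with genes that had 0 counts in a whole group set at the bound that 3 counts over that group allow. Ccl12, Ccl9 and Ccl2, monocyte-attracting CC chemokines, Cxcl2, a neutrophil-attracting CXC chemokine of macrophages and neutrophils, and Pf4 had the smallest p. Ccl2, which encodes MCP-1, measured 19.7 and 17.1 CPM in CD4+CD127-PD-1+ against 0.372 to 2.07 CPM in CD4+CD127+PD-1-, and 17.2 to 34.9 against 0.277 to 1.01 CPM in CD8 cells. Its log2 fold changes were 4.06 (adjusted p = 0.000758) and 5.19 (adjusted p = 0.000133).

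Ccl12, a further CCR2 ligand, rose by 6.87 (adjusted p = 0.000122) and 7.69 (adjusted p = 3.22e-05), from at most 0.414 CPM in any CD127+PD-1- library. Ccl9 rose by 2.86 (adjusted p = 0.000905) and 3.96 (adjusted p = 9.98e-05), and Pf4 by 5.60 (adjusted p = 0.00242) and 4.73 (adjusted p = 0.00235). Cxcl2 rose by 2.39 in CD4 (adjusted p = 0.0159) and by 5.44 in CD8 cells (adjusted p = 0.00018), and its CD8+CD127-PD-1+ libraries measured 14.7, 67.5 and 82.4 CPM. Its CD4 call was lost with limma-voom (adjusted p = 0.14) and when CD4+CD127-PD-1+ replicate 2 was left out (0.0696), and likewise for CD4+CD127+PD-1- replicate 1 (0.054) and replicate 2 (0.0665), and the CD8 call of Pf4 with limma-voom (0.0632). The neutrophil markers moved with Cxcl2 in the CD8+CD127-PD-1+ libraries, their 6 genes summing to 38.6, 180 and 247 CPM, and their part in the level of Cxcl2 was not tested. Ccl7 and Ccl8 had 0 counts in all CD4+CD127+PD-1- libraries. They measured 2.22 and 4.35 CPM (Ccl7) and 1.61 and 1.10 CPM (Ccl8) in CD4+CD127-PD-1+ libraries.

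**Figure D4:**
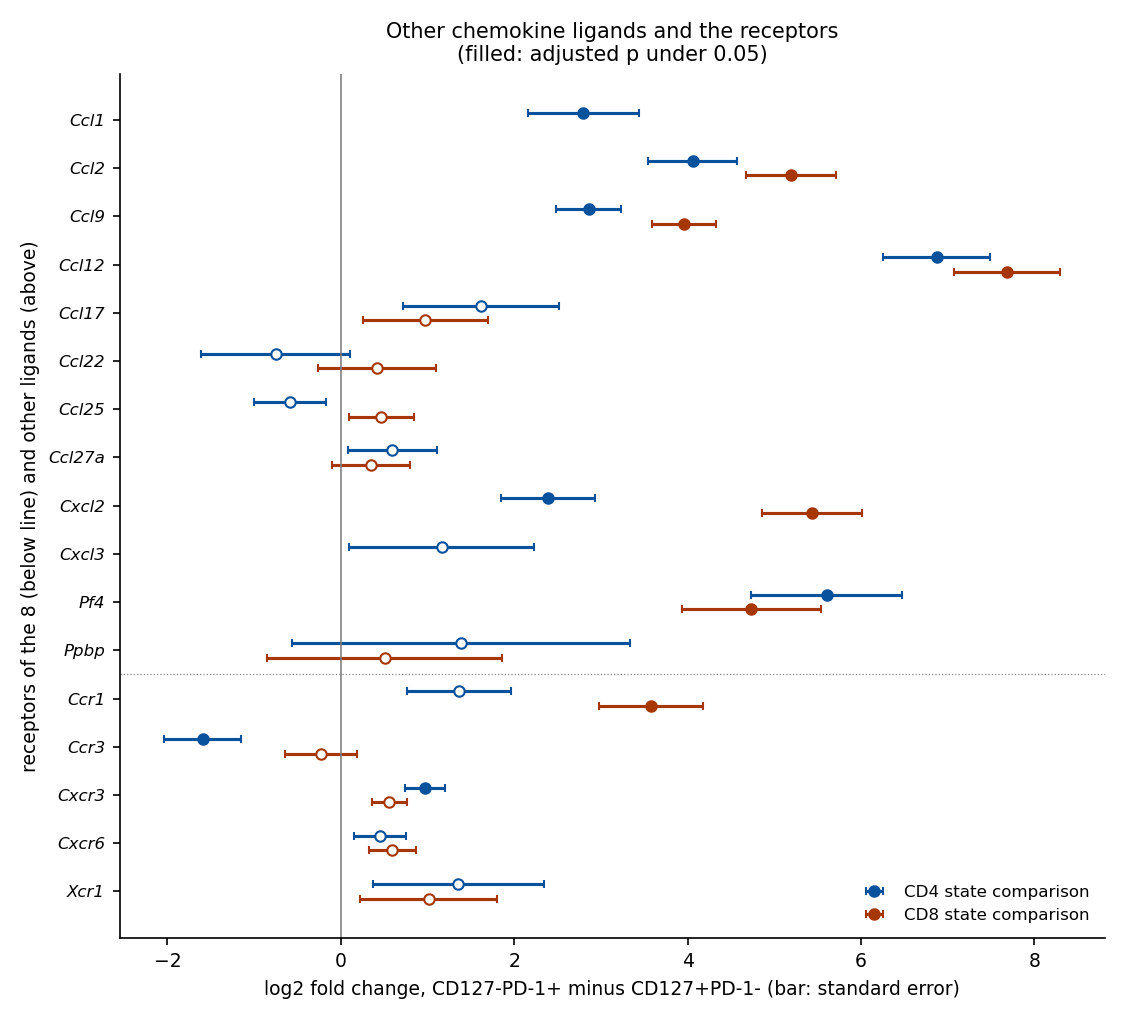
Log2 fold changes (CD127-PD-1+ minus CD127+PD-1-) of other chemokine ligands, above the dotted line, and of the receptors of the 8 ligands, below it, in CD4 (blue) and CD8 cells (orange). Bars are standard errors, filled points have an adjusted p under 0.05, and genes with 3 counts or fewer in the whole CD127+PD-1- group are not drawn. Ccl12 lies farthest right in both lineages, and of the receptors Ccr1 in CD8 cells lies farthest right, at 3.58.

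Of 5 receptor genes of the ligands 1 was called higher (Cxcr3) and 1 lower (Ccr3) in CD4 cells, and 1 higher (Ccr1) and 0 lower in CD8 cells, with medians of 0.97 and 0.59. Cxcr3, the receptor of CXCL9 and CXCL10 on type 1 T cells, measured 79.5 and 97.2 against 41.2, 40.5 and 53.7 CPM in CD4 cells and rose by 0.97 (adjusted p = 0.0183). In CD8 cells it measured 84.1, 74.6 and 65.4 against 47.0, 36.8 and 67.9 CPM, with overlap (0.56, adjusted p = 0.0895). The CD4 call of Cxcr3 was lost when CD4+CD127-PD-1+ replicate 2 was left out (adjusted p = 0.113), and likewise for CD4+CD127+PD-1- replicate 1 (0.0645) and 2 (0.0705).

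Ccr1, which binds CCL3 and CCL5 and is prominent on myeloid cells, was called in CD8 cells (3.58, adjusted p = 0.00215) and not in CD4 cells (1.36, adjusted p = 0.175). Ccr3, the eosinophil and type 2 T cell receptor of CCL5, fell by 1.59 in CD4 cells (adjusted p = 0.0377), from 5.06, 4.15 and 6.33 CPM to 1.08 and 2.34 CPM, a call that was lost when any of the 5 libraries but CD4+CD127-PD-1+ replicate 2 was left out (adjusted p from 0.063 to 0.217). Cxcr6, the receptor of CXCL16, stood at 63.9 CPM or more in every library (209 and 259 CPM in CD4+CD127-PD-1+ against 171, 148 and 194 CPM in CD4+CD127+PD-1-) and was called in neither lineage (0.45, adjusted p = 0.385, and 0.59, adjusted p = 0.171). Xcr1, the receptor of XCL1, measured 185, 44.0 and 36.1 CPM in CD8+CD127-PD-1+ and 92.1, 34.8 and 4.50 CPM in CD8+CD127+PD-1- replicates 1 to 3. Across these 6 libraries Xcr1 and Cxcl9 stood in the same order within each population, and neither CD8 (1.01, adjusted p = 0.438) nor CD4 cells (1.36, adjusted p = 0.432) passed for Xcr1.

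Among 17 other chemokine receptors 13 were tested, and 1 was called higher and 2 lower in CD4 cells, and 4 higher and 2 lower in CD8 cells (medians -0.09 and -0.08). Cx3cr1, the fractalkine receptor of monocytes, macrophages and effector CD8 cells, rose by 4.73 (adjusted p = 0.000122) and 2.06 (adjusted p = 0.00181). Ccr7, the lymph node homing receptor, fell by 2.49 (adjusted p = 0.00112) and 2.05 (adjusted p = 0.000721), and Ccr9, the gut homing receptor, by 2.80 (adjusted p = 0.00774) and 3.24 (adjusted p = 0.000995). Ccrl2 and Cxcr2, the latter a neutrophil receptor, were called higher in CD8 cells (2.76, adjusted p = 0.000642, and 4.84, adjusted p = 0.00311) and not in CD4 cells (1.13, adjusted p = 0.0812, and 0.68, adjusted p = 0.746). The call of Ccr9 in CD4 cells was lost when CD4+CD127-PD-1+ replicate 2 was left out (adjusted p = 0.058), and that of Cxcr2 with limma-voom (adjusted p = 0.0636). In the test of whether the state difference itself differed between CD8 and CD4 cells, edgeR's quasi-likelihood test called 0 of the 5 receptors of the ligands and 0 of these 13, so the receptors called in 1 lineage alone are not shown to differ between lineages. At an unadjusted p under 0.05 there were 2 of the 5, both lower, and 3 higher and 3 lower of the 13. DESeq2 called 0 and 1, and limma-voom 0 and 0.

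Genes that T cells switch on after antigen receptor stimulation, which also induces Ccl3, Ccl4 and Xcl1, were partly higher in CD127-PD-1+. Of 12 such genes 3 were called higher in CD4 and 4 in CD8 cells, and 0 lower (medians 0.30 and 0.46). Over all genes 6.81% and 9.05% were called higher. At an unadjusted p under 0.05, 4 were higher and 1 lower in CD4 cells, and 6 and 0 in CD8 cells. In CD4 cells the mean was lower in CD127-PD-1+ for Nr4a1 (190 against 248 CPM), Nr4a3 (209 against 262 CPM) and Egr1 (481 against 548 CPM). It was higher for the rest of the list. Nfatc1, the calcium-dependent transcription factor, rose by 1.06 (adjusted p = 0.000641) and 0.74 (adjusted p = 0.00165). Egr2 rose by 0.97 (adjusted p = 0.00254) and 1.12 (adjusted p = 0.000411). Nr4a2 rose by 0.82 in CD4 cells (adjusted p = 0.0486), and Tnf by 0.96 (adjusted p = 0.00207) and Irf4 by 0.67 (adjusted p = 0.0234) in CD8 cells. The call of Nr4a2 was lost without each of the 5 CD4 libraries (adjusted p from 0.0617 to 0.261), and that of Irf4 without CD8+CD127-PD-1+ replicate 1 or 3 or CD8+CD127+PD-1- replicate 1 or 2 (adjusted p from 0.0536 to 0.0917). Of 7 granule genes, whose products are released by the same effector cells as CCL5, 2 were called higher and 1 lower in CD4 cells and 0 in CD8 cells (medians 0.40 and 0.50). In CD8 cells 3 had an unadjusted p under 0.05, all higher, and DESeq2 called 2 and limma-voom 1. In CD4 cells Nkg7 rose by 1.72 (adjusted p = 0.00222) and Gzmk by 2.48 (adjusted p = 0.0137), while Prf1, which encodes perforin, fell by 2.02 (adjusted p = 0.0077). The call of Gzmk was lost with limma-voom (adjusted p = 0.144) and when CD4+CD127-PD-1+ replicate 1 was left out (0.0643), and likewise for CD4+CD127+PD-1- replicate 2 (0.061), and that of Prf1 when CD4+CD127-PD-1+ replicate 2 was left out (0.0617).

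The genes whose pattern over the 11 libraries was nearest to each ligand, by the root mean square (RMS) difference of centred log2 CPM among 10138 genes, differed from ligand to ligand. Ccl4 was nearest to Slamf7, a SLAM family receptor of effector lymphocytes (0.19), Tm6sf1 (0.34) and Dapk2 (0.37). Ccl3 was nearest to Cmklr1, the chemerin receptor (0.47), to Ccl4 (0.51) and to E2f8 (0.55). Ccl5 was nearest to S1pr5, a sphingosine phosphate receptor of NK and effector CD8 cells (0.53), Crtam (0.62) and Esm1 (0.62). Ccl6 was nearest to Tlr2 (0.46), Lyz2, which encodes the lysozyme of myeloid cells (0.48), and Lrp1 (0.51).

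Cxcl16 was nearest to Myof (0.26), Zfhx3 (0.31) and Tlr4, the lipopolysaccharide receptor (0.32). Cxcl10 was nearest to Rsad2, an interferon-stimulated antiviral gene (0.26), Frmd4b (0.28) and Tgfbr1 (0.29). Cxcl9 was nearest to Cdk14 (0.50), Aif1, a macrophage marker (0.53), and a transcript named RP23-407F12.1 (0.54). Xcl1 was nearest to Tor4a, Uap1l1 and Cenpu (0.25 each), on the scale of its own SD of 0.48. Between the ligands themselves the nearest pair was Ccl3 and Ccl4 (0.51), followed by Ccl6 and Cxcl16 (0.68) and Cxcl9 and Cxcl16 (0.75), and the farthest was Ccl5 and Cxcl16 (2.24). These distances are descriptions over libraries that share depth and population, and were not tested.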

How the data were processed

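Per the labels' protocols, kidney T cell RNA (Agencourt RNAdvance Cell kit) was amplified from 2 ng by the SPIA method and sequenced as single 75-base reads on a NextSeq550. The authors deposited raw read counts per gene. STAR, featureCounts and GRCm38 were used per the submitters' processing notes, and the sources used here give no versions, annotation or strand setting. Of the table's columns 11 matched labelled samples and 1 without a label was not used. The counts were analysed with edgeR 4.0.16 in R 4.3.3. Genes passed filterByExpr at its defaults, libraries were scaled by TMM, and a quasi-likelihood model with a mean per group was fitted to all 11 libraries. P-values were adjusted by Benjamini-Hochberg over 16365 genes. CPM per kb uses merged exon lengths of GENCODE M21, in which 45143 of 46078 identifiers were found. Fold changes are model estimates, their SE is the estimate over the root of the F statistic, and the common biological coefficient of variation was 0.244. The fit was tested on simulated data.

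Members and gene lists were chosen with earlier results of these data known. Some list genes are not reported here and were left out of the list counts. Genes named were the 8 ligands, 5 of their receptors, up to 5 called genes per pathway list by smallest p over both state comparisons, and the 3 genes nearest to each ligand in pattern. For the pattern, log2 CPM used a prior count of 2 and genes needed an average log2 CPM of at least 1. Alternatives were other size factors, no filter, DESeq2, limma-voom, only the compared groups, mitochondrial genes left out, a replicate block, each library left out and, chosen after seeing the data, the counts of overlapping genes added. P-values measure the spread between pools of mice.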

Additional observations from a re-analysis of the deposited data

How the results depend on the processing

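Of the 8 ligands, the number called higher in CD4 cells was 2 to 6 when each library was left out in turn (2 without CD4+CD127-PD-1+ replicate 1), and 5 to 8 under the other alternatives. In CD8 cells it was 4 to 6 and 5 to 6. Leaving out either CD4+CD127-PD-1+ library left 1 library in that group, and fewer of all genes were then called in CD4 cells too. Among CD127+PD-1- cells 3 were lower in CD4 under every library left out and 3 to 4 otherwise. Among CD127-PD-1+ cells the 1 ligand called lower in CD4 became 0 without CD4+CD127-PD-1+ replicate 2, with a range of 0 to 1 over libraries left out, and 3 with no filter on low counts and with DESeq2. Without this filter more genes were tested, and the cause of the other changes was not tested. No ligand was called for state by lineage under any of these.

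Labels give replicate numbers in titles and others in descriptions. Same-numbered libraries correlated above 0.1 in 7 of 15 pairs by title and 10 of 12 by description, against 7 of 30 and 4 of 33 pairs of different numbers. The median correlation was 0.153 for pairs of the same description number and -0.0815 for pairs of different description numbers. Not every pair was above 0.1, and neither numbering was used in the main fit. A pairing by description number remains possible, and the p-values of the main fit would not account for it. With either replicate block, 6 ligands were called higher in each state comparison. With the description block the calls of Irf4 (adjusted p = 0.0862) and Slamf7 (adjusted p = 0.0972) in CD8 cells were lost, the genes called lower in CD4 among CD127+PD-1- cells numbered 436 and not 271, and Cxcl16 among CD127-PD-1+ cells was 0.046, at an adjusted p of 0.978.

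Directions that turned all belonged to differences that were not called. Over the libraries left out in turn, the log2 fold change between CD8 states ran from -0.20 to 0.57 for Ccl5 (negative without CD8+CD127-PD-1+ replicate 1, and -0.14 without CD8+CD127+PD-1- replicate 2), from -0.42 to 0.090 for Ccr3 and from -0.13 to 2.17 for Xcr1. Between CD127+PD-1- lineages it ran from -0.52 to 0.40 for Ccl6 (also 0.0030 and 0.18). Between CD127-PD-1+ lineages it ran from -1.84 to 0.0077 for Ccl6, from -0.20 to 0.57 for Xcl1, from -0.66 to 0.32 for Cxcl16 (also 0.18) and from -0.18 to 0.38 for Cxcl10 (also -0.14). For state by lineage it ran from -1.77 to 0.10 for Ccl6 and from -0.18 to 1.91 for Cxcl9.

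Counts over all genes moved too. Without single libraries, 554 to 804 genes were higher and 374 to 582 lower in CD4 (1115 and 797 with all libraries), and 861 to 1495 and 614 to 1026 in CD8 cells (1481 and 1074). Among CD127+PD-1- cells 235 to 419 and 140 to 268 were called (452 and 271), and 578 lower without the filter and 527 with DESeq2. Among CD127-PD-1+ cells 96 to 244 and 30 to 140 were called (262 and 138), 443 and 348 without the filter, 425 and 292 with DESeq2, and 143 and 71 with only those groups. For state by lineage 1 gene became 27 higher and 58 lower without the filter, and 20 and 40 with DESeq2. Of the 8 ligands Cxcl9 had the largest SE in all 5 comparisons (0.70 to 1.06), followed by Ccl6, which had 1 to 20 counts in CD127+PD-1- libraries.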

Other observations

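Shares of the summed counts of the 8 ligands were read within each library, as a description with no test. Ccl3 took 21.2 and 21.1% in CD4+CD127-PD-1+, 14.5, 11.7 and 13.0% in CD4+CD127+PD-1-, 18.0, 19.2 and 25.3% in CD8+CD127-PD-1+, and 8.37, 8.13 and 8.80% in CD8+CD127+PD-1-. There were 8.24, 8.73 and 8.93 counts of Ccl5 per count of Ccl3 in CD8+CD127+PD-1-, although the level of Ccl5 there ran from 239 to 626 CPM. In CD8+CD127-PD-1+ the ratio was 3.05, 2.39 and 1.09, in CD4+CD127+PD-1- 1.57, 2.51 and 2.28, and in CD4+CD127-PD-1+ 0.558 and 0.842.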
